A study of Mus musculus with 8 samples.

Results

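Cells pull on their surroundings with filaments of actin that slide along filaments of myosin. Muscle cells make their own forms of actin, namely skeletal (Acta1), cardiac (Actc1), vascular smooth muscle (Acta2) and enteric smooth muscle (Actg2), while Actb and Actg1 encode the cytoplasmic actins found in every cell. Transgelin, calponin and tropomyosin bind the actin filament in smooth muscle. They also do so in the stress fibres of myofibroblasts and other mesenchymal cells, such as osteoblasts in culture. In smooth muscle, the smooth muscle myosin pulls on the actin filament, and desmin filaments link the contractile units. Many of these genes are bound by serum response factor (SRF), working with myocardin or the related cofactors called MRTFs, at a short sequence named the CArG box.

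The 10 genes described here are Acta1, Acta2, Actg2, Tagln, Cnn1, Myh11, Myl9, Tpm1, Tpm2 and Des, out of 51822 genes in the files. The family was chosen on the values of Acta1, which stood high late in culture with the compound LAMZ. Values of Acta1 are therefore a description, with no test. The other 9 genes were named with it by function, while earlier results of these data were known. Their day 14 tests are thus not independent of that choice. All 10 genes passed the filter on low values, with RPKM reaching 1 in 2 or more libraries, as did 12514 genes in all.

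The study examined LAMZ (locamidazole), an aminoindazole compound, for its effects on bone and muscle. Mouse osteoblast progenitors were grown in osteogenic medium that held β-glycerophosphate at 10 mM, dexamethasone at 10 nM and ascorbic acid, and received either 1 µM LAMZ or the DMSO vehicle, called control here. RNA was sequenced at day 7 and at day 14, and each of the 4 groups has 2 libraries. The sample labels name the cell line MC3T3-E1, whereas the methods describe primary calvarial cells, a mixture taken from the skull bones of newborn mice. The column header of LAMZ replicate 1 of day 7 does not repeat the sample title, as the other 7 headers do. That library was therefore placed by its title. Its macrophage marker sum of 9.13 RPKM is near the 7.00 of the other LAMZ library of that day. It is far from the 425 and 538 of the controls of that day. The LAMZ libraries of day 14 had 7.09 and 7.10, so this sum does not tell the day of that library.

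Expression is given as RPKM, the reads of a gene divided by its transcript length and by the mapped reads of the library. This division does not give the libraries equal sums of RPKM. The sums were 361198 and 338220 in the day 7 controls and 427558 and 437003 with LAMZ. At day 14 they were 297868 and 286747 in the controls and 376912 and 375439 with LAMZ. Levels between libraries therefore depend on the scaling, and results under other scalings are given below. The depth recovered from the smallest steps of the values ran from 3463538 mapped reads in control replicate 2 of day 7 to 5832101 in LAMZ replicate 1 of day 14. Fold changes are differences of group means of log2(RPKM + 1), which understates changes of genes near or under 1 RPKM. A gene is called changed where its limma p-value, after Benjamini-Hochberg adjustment across the 12514 tested genes, was under 0.05. With 2 libraries a group, an exact permutation test of a single gene cannot go below p = 0.333. The labels do not say whether replicates came from separate cultures, so the p-values measure only the spread between these libraries, which may be technical.

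Among the 4 actin genes of muscle, Acta1 was the least abundant of the 3 with clear expression. At day 7 its RPKM was 4.835 and 1.13 in the control libraries and 1.98 and 3.62 in the LAMZ libraries. In the day 14 libraries it was 0.970 and 1.58 in the control libraries and 22.8 and 18.5 in the LAMZ libraries. Both LAMZ libraries of day 14 thus stood far above the other 6 libraries, while at day 7 the control and LAMZ values overlapped. Group means were 2.98 ± 2.62 (SD, n = 2) in control and 2.80 ± 1.16 in LAMZ at day 7, then 1.28 ± 0.434 in control and 20.65 ± 3.0 in LAMZ at day 14. The ratio of the mean RPKM with LAMZ to that in control was 0.941 at day 7 and 16.2 at day 14, and the log2 fold changes, which average logarithms and so differ from the ratio in sign at day 7, were 0.08 and 3.26.

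Few reads lay behind the low values of Acta1. The RPKM values convert to 28 and 6 reads in the controls of day 7, 13 and 29 with LAMZ at that day, 8 and 11 in the controls of day 14, and 204 and 139 with LAMZ at day 14. Exact 95% Poisson intervals, which cover counting error only, were 18.6 to 40.5 for 28 reads and 2.20 to 13.1 for 6 reads, so the control replicates of day 7 differed by more than counting. For 204 and 139 reads the intervals were 177 to 234 and 117 to 164. Actin genes resemble each other closely. Of the 1534 windows of 50 bases in Acta1 transcripts, 31 (2.02%) occurred letter for letter in transcripts of other genes. Among these were Gm47692 (31 windows), Actb (28), Gm8543 (17) and the pseudogene Actg-ps1 (15). How reads from those windows were shared out is not known. Actb itself, at 1611 and 1731 RPKM with LAMZ at day 14, lay below its control values of 1815 and 1786. The part of reads from these other genes in the level of Acta1 was not tested.

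Acta1 lies at chr8:123891769-123894751 on the minus strand. The bases upstream of its start are shown because several members stood higher together with LAMZ at day 14 and CArG boxes are the known element of the family. RefSeq promoter sequences of build GRCm38.p6 were at hand for 7 of the 10 members; Actg2, Tagln and Myh11 were missing. The CArG box, read on both strands, is CC, then 6 letters that are each A or T, then GG, and the looser form allows 1 other letter among those 6. Capitals mark CArG boxes of either form, the motif CATTCC on either strand and TATAAA on the gene's strand. For Acta1 the full 250 bases before the RefSeq start are given, 5′ to 3′, from chr8:123894776-123895025 on the minus strand. For Myl9 the stretch from chr2:156775214-156775419 on the plus strand is given, which ends where the first GENCODE exon begins; the window of Acta2 overlaps an exon and is not shown.
Acta1: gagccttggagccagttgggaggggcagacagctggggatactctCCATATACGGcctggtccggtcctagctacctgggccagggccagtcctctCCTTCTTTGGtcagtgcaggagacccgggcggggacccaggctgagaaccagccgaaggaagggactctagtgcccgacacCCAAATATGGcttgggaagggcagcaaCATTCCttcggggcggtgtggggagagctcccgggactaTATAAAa
Myl9: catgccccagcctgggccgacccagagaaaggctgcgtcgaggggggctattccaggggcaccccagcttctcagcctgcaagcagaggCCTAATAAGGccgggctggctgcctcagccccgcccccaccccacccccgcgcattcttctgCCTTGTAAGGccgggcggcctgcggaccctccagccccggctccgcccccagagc

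Acta1 held a CArG box whose first base lies at position -73, counted back from the RefSeq start, and further boxes of the looser form at -205 and -154. Its CATTCC lies at -46 and its TATAAA at -7. Myl9 held a CArG box at -161 and a looser one at -99. In the window of Acta2, looser boxes lie at -84 and -34, past -218, the last base before the first GENCODE exon. The strict box thus occurred in 2 of the 7 members with a sequence, Acta1 and Myl9, and in 1.47% of 32851 promoters of the same length. With the looser form, 3 members held a box, against 8.59% of all promoters. The motif CATTCC, the core bound by TEAD factors, occurred in 3 members, Acta1, Acta2 and Tpm1, and in 12.6% of all promoters. In Acta2 it lies at -146, also past the start of that exon. In Tpm1 it lies at -56, where the last base before the first GENCODE exon is -194. TATAAA occurred in Acta1 alone of the 7, and in 7.59% of all promoters on the gene's strand. The E-box CANNTG, the core bound by myogenic factors, occurred in 6 members on either strand and in 66.2% of all promoters. A match describes letters in these windows and does not show that a factor binds there.

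**Figure D1:**
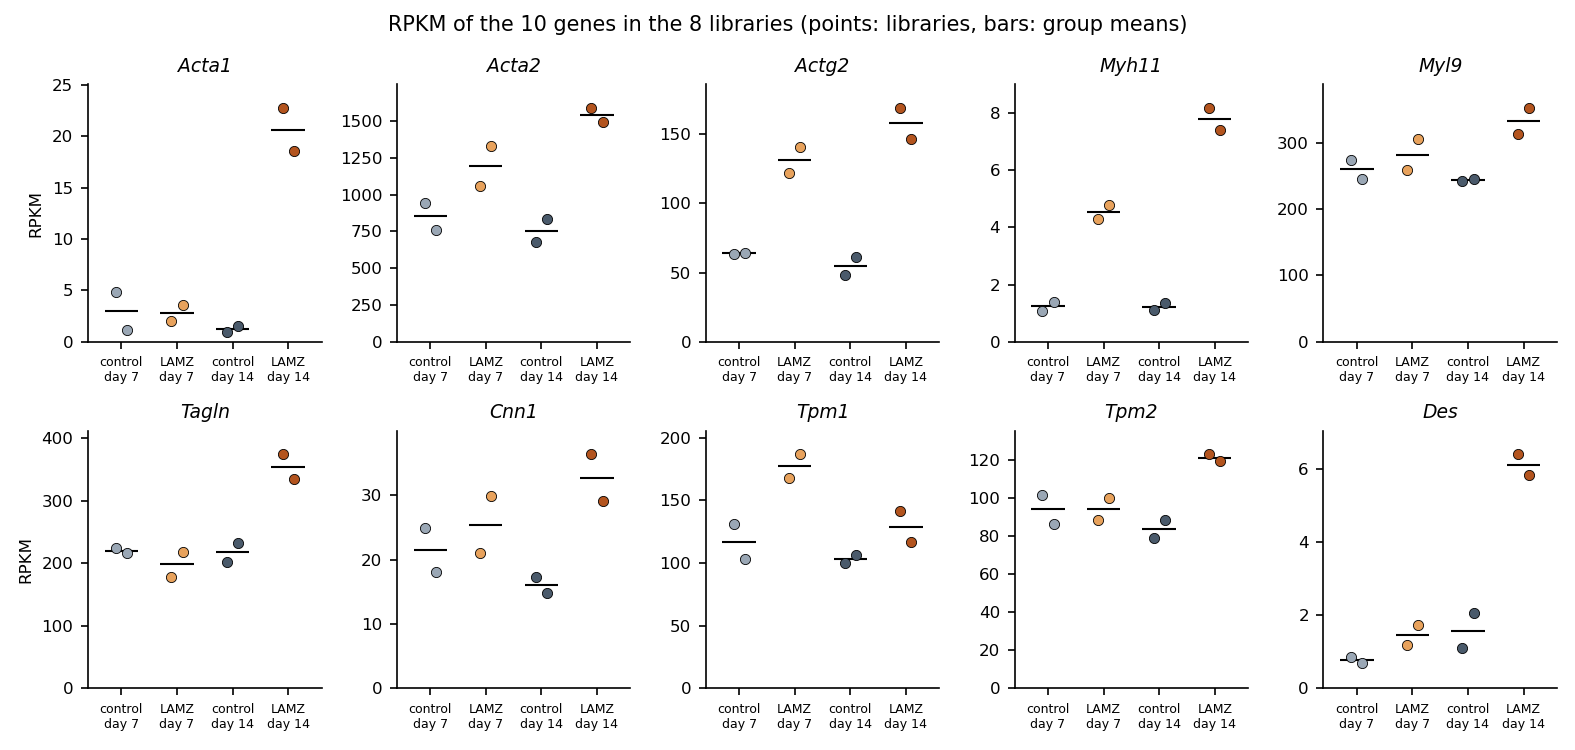
RPKM of the 10 genes (vertical axes, linear from 0) in each of the 8 libraries, grouped as control and LAMZ at day 7 and day 14; points are libraries and bars are group means of 2 libraries. At day 14 both LAMZ points lie above both control points in every panel, and Acta1 goes from 0.970 and 1.58 to 22.8 and 18.5.

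Acta2, the smooth muscle alpha-actin long used as the mark of myofibroblasts, was by far the most abundant member. Its RPKM was 945 and 761 in the day 7 controls and 1061 and 1327 with LAMZ. By day 14 the values were 675 and 835.5 in the controls and 1588 and 1495 with LAMZ. The LAMZ libraries lay above the controls on both days, and the gap was wider at day 14. Ranked by mean RPKM over all libraries it was number 23 of all genes, and it held between 49.4% and 57.2% of the summed RPKM of the 10 members. At day 14 the log2 fold change was 1.04 (95% interval 0.62 to 1.45), higher in 2 of 2 LAMZ libraries, and the gene was called (limma, Benjamini-Hochberg adjusted p = 0.00538). At day 7 the log2 fold change of 0.48 missed the threshold (limma, Benjamini-Hochberg adjusted p = 0.124), although both LAMZ libraries lay above both controls.

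Actg2, the enteric smooth muscle gamma-actin, was expressed at 6.74% to 11.5% of the level of Acta2. Its RPKM was 63.7 and 64.2 in the day 7 controls and 122 and 141 with LAMZ. At day 14 the RPKM was 48.3 and 61.4 in the controls and 169 and 147 with LAMZ. Control and LAMZ libraries did not overlap on either day, and the mean with LAMZ was 2.06 times the control mean at day 7 and 2.88 times at day 14. Actg2 was called at day 7, with a log2 fold change of 1.02 and both LAMZ libraries higher (limma, Benjamini-Hochberg adjusted p = 0.00471). It was called at day 14 as well, with a log2 fold change of 1.51 and both LAMZ libraries higher (limma, Benjamini-Hochberg adjusted p = 4.06e-04).

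The cardiac actin Actc1 had between 0 and 2 reads in every library, so no difference in it was detectable at this depth. A count of 0 reads in LAMZ replicate 2 of day 14 allows up to 0.467 RPKM by the exact Poisson interval. Acta1 with LAMZ at day 14 was therefore present without any comparable level of the other striated muscle actin.

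A scaling factor shared by all genes of a library cancels in the ratio of one actin to another, which does not hold for quantile normalization. The ratio of Acta1 to Acta2 was 0.511% and 0.148% in the day 7 controls, 0.187% and 0.273% with LAMZ at day 7, and 0.144% and 0.190% in the day 14 controls. With LAMZ at day 14 it was 1.43% and 1.24%. Acta1 thus gained on Acta2 in those 2 libraries and yet remained a minor actin there. The ratio of Acta2 to the cytoplasmic Actb was 44.3% and 39.6% in the day 7 controls and 79.5% and 86.5% with LAMZ. Actb itself had 2136 and 1925 RPKM in the day 7 controls and 1335 and 1533 with LAMZ. The day 7 ratios and shares thus reflect lower Actb as well as higher Acta2, and neither gene was called at that day. The day 14 ratios were 37.2% and 46.8% in the controls and 98.6% and 86.3% with LAMZ. The muscle actins together made up 27.3% and 24.8% of the summed RPKM of the 6 actin genes in the day 7 controls and 39.1% and 40.7% with LAMZ. At day 14 they made up 23.0% and 26.6% in the controls and 43.5% and 40.0% with LAMZ. The makeup of actin RNA therefore differed between control and LAMZ on both days, with no overlap, and the share with LAMZ was similar at day 7 and day 14.

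**Figure D2:**
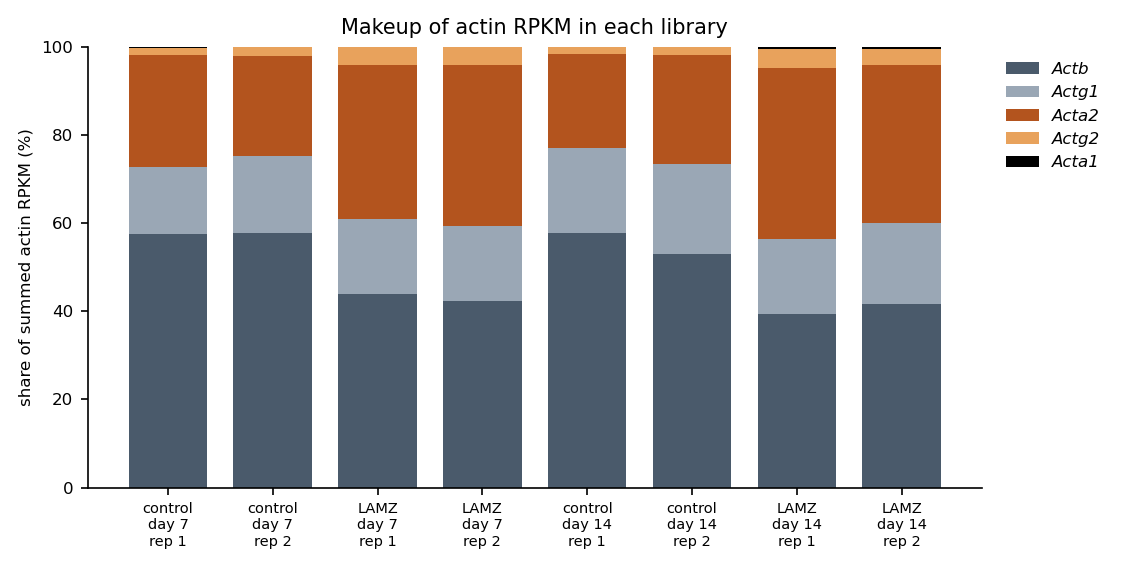
Share of each actin gene in the summed RPKM of the 6 actin genes (vertical axis, percent) for each of the 8 libraries; colours are genes, and Actc1 is too low to be drawn. Acta2 and Actg2 together take a larger share in each LAMZ library than in any control library, and Acta1 is the thin band at the top, 0.557% and 0.447% with LAMZ at day 14.

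Tagln encodes transgelin, a small actin-binding protein of smooth muscle and stress fibres. Its RPKM was 224 and 216 in the day 7 controls and 178 and 218 with LAMZ. The day 14 values were 202 and 232.5 in the controls and 374 and 334.5 with LAMZ. Values overlapped at day 7, and at day 14 both LAMZ libraries were clearly higher. At day 14 Tagln was called with a log2 fold change of 0.70 (limma, Benjamini-Hochberg adjusted p = 0.0105), whereas at day 7 the log2 fold change was -0.16 (limma, Benjamini-Hochberg adjusted p = 0.527). Its exons overlap those of Pcsk7 and Gm48529 on the other strand, so part of its reads is of uncertain origin.

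Cnn1 encodes calponin, which binds actin and slows the myosin motor, and is among the later markers of smooth muscle. Its RPKM was 24.9 and 18.05 in the day 7 controls and 21 and 29.9 with LAMZ. In the day 14 libraries it was 17.3 and 14.9 in the controls and 36.35 and 29.05 with LAMZ. As with Tagln, the groups overlapped at day 7 and stood apart at day 14. The log2 fold change at day 14 was 0.98, with both LAMZ libraries higher, and the gene was called (limma, Benjamini-Hochberg adjusted p = 0.0148).

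Tropomyosins lie along the actin filament and set which myosins reach it. Tpm1 had 131 and 103 RPKM in the day 7 controls and 168 and 187 with LAMZ. At day 14 it had 99.7 and 106 RPKM in the controls and 141 and 117 with LAMZ. Tpm1 thus stood highest with LAMZ at day 7, unlike the other members, and the LAMZ libraries lay above the controls on both days. It was called at day 7, with a log2 fold change of 0.60 (limma, Benjamini-Hochberg adjusted p = 0.0425), and not at day 14, where the log2 fold change was 0.32 (limma, Benjamini-Hochberg adjusted p = 0.186). The day 7 call was kept in 6 of 20 alternative settings. Whether the effect differed between the days was tested, and the difference of -0.29 did not pass (limma, Benjamini-Hochberg adjusted p = 0.550).

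Tpm2 had 102 and 86.55 RPKM in the day 7 controls and 88.4 and 100 with LAMZ. At day 14 it had 79.0 and 88.6 RPKM in the controls and 123 and 120 with LAMZ. The groups overlapped fully at day 7 and stood apart at day 14. Tpm2 was called at day 14 with a log2 fold change of 0.53 (limma, Benjamini-Hochberg adjusted p = 0.0233). The ratio of Tpm1 to Tpm2 was 190% and 187% with LAMZ at day 7, against 128% and 119% in the controls of that day. At day 14 the ratio was 115% and 97.5% with LAMZ and 126% and 120% in the controls, so the LAMZ libraries had the higher ratio at day 7 and the lower at day 14. This turn is a description, since the LAMZ effect did not pass the test of a difference between the days for either gene.

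Myh11 encodes the myosin heavy chain of smooth muscle, the motor that is most particular to that tissue. Its RPKM was 1.08 and 1.39 in the day 7 controls and 4.28 and 4.78 with LAMZ. By day 14 the values were 1.095 and 1.37 in the controls and 8.17 and 7.41 with LAMZ. The controls stood at the same low level on both days, and every LAMZ library lay above every control library. The values rest on 27 and 32 reads in the day 7 controls and 121 and 165 with LAMZ, then 39 and 41 in the day 14 controls and 316 and 240 with LAMZ. These counts rest on a transcript length of 6632 bases, found by a search for the length that makes the counts whole, since the GENCODE exon length of 7599 bases did not. The log2 fold change was 1.31 at day 7, with both LAMZ libraries higher (limma, Benjamini-Hochberg adjusted p = 0.00116). At day 14 it was 1.98, with both LAMZ libraries higher (limma, Benjamini-Hochberg adjusted p = 8.23e-05). The ratio of mean RPKM with LAMZ to control was 3.66 at day 7 and 6.33 at day 14, so the fold changes on the RPKM + 1 scale understate it.

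Myh11 remained rare beside the nonmuscle myosin Myh9, and 26 of its 7644 transcript windows of 50 bases (0.340%) also occur in Myh9 or Myh10. Relative to Myh9, Myh11 stood at 1.29% and 1.82% in the day 7 controls and at 6.14% and 7.54% with LAMZ. In the day 14 libraries the ratio was 1.5% and 1.81% in the controls and 7.70% and 7.06% with LAMZ. As with the actins, the muscle form gained on the nonmuscle form on both days.

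Myl9 encodes a regulatory myosin light chain, whose phosphorylation switches contraction on in smooth muscle and in stress fibres. Its RPKM was 275 and 246 in the day 7 controls and 259 and 305 with LAMZ. At day 14 the RPKM was 242 and 246 in the controls and 313 and 353 with LAMZ. Values overlapped at day 7 and stood apart at day 14, by less than for the other called members. The log2 fold change at day 14 was 0.44 (95% interval 0.13 to 0.76), and the gene was called by a narrow margin (limma, Benjamini-Hochberg adjusted p = 0.0486).

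Des encodes desmin, the intermediate filament protein of muscle. Its RPKM was 0.848 and 0.692 in the day 7 controls and 1.19 and 1.74 with LAMZ. Values at day 14 were 1.09 and 2.06 in the controls and 6.395 and 5.84 with LAMZ. The LAMZ libraries lay above the controls on both days, and those of day 14 lay well above the other 6 libraries, as for Acta1. The values rest on 12 and 9 reads in the day 7 controls, 19 and 34 with LAMZ, 22 and 35 in the day 14 controls, and 140 and 107 with LAMZ. Des was called at day 14 with a log2 fold change of 1.49 (limma, Benjamini-Hochberg adjusted p = 0.00214), and at day 7 the log2 fold change of 0.47 missed the threshold (limma, Benjamini-Hochberg adjusted p = 0.192). Relative to vimentin (Vim), the intermediate filament of mesenchymal cells, desmin stood at 0.0891% and 0.0944% in the day 7 controls and at 0.202% and 0.294% with LAMZ. By day 14 the ratio was 0.157% and 0.293% in the controls and 1.12% and 1.03% with LAMZ. An exon of Gm15179 on the other strand overlaps Des, which leaves part of its reads uncertain.

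The comparison of LAMZ with control at day 7 asks what the compound did early in osteoblast culture. Of the 9 members other than Acta1, 3 were called, all higher (Actg2, Myh11 and Tpm1), where 12.8% of all tested genes were called and 4.35% were called higher. For 5 of the 9 members, Acta2 and Des besides those 3, the lower LAMZ library exceeded the higher control library, as it did for 20.4% of all tested genes. The member log2 fold changes ran from -0.16 (Tagln) to 1.31 (Myh11), with a median of 0.47, beside a median of -0.08 over all tested genes. Scaling all libraries to an equal RPKM sum, which moved the median of all genes to -0.31, put Cnn1, Myl9 and Tpm2 below 0 as well, ended the call of Tpm1 and made Tagln pass as lower, at -0.46. The call of Tpm1 was kept in 6 of 20 alternative settings. It also ended with no filter, no trend, quantile normalization, either replicate block or day 7 fitted alone. Leaving out control replicate 2 or either LAMZ replicate of day 7, or any 1 library of day 14, ended it as well. The calls of Actg2 and Myh11 were kept in all 20.

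At day 14 the same comparison asks what the compound did once the culture had matured. Of the 9 members, 8 were called, all higher, where 23% of all tested genes were called and 6.96% were called higher; nothing is read from this count, since the family was chosen on this contrast. Both LAMZ libraries lay above both controls for 9 of the 9 members, against 20.1% of all tested genes, and nothing is read from this count either. The log2 fold changes ran from 0.32 (Tpm1) to 1.98 (Myh11), with a median of 0.98, beside a median of -0.15 over all tested genes; under the same-sum scaling, where the median of all genes was -0.43, Tpm1 turned to -0.05. The calls of Actg2, Myh11 and Des were kept in all 20 alternative settings, that of Acta2 in 19, Cnn1 in 18, Tagln in 16, Tpm2 in 14 and Myl9 in 5. The same-sum scaling ended the calls of Tagln (0.34), Tpm2 (0.17) and Myl9 (0.08), quantile normalization those of Tagln (0.33) and Myl9 (0.06), no filter those of Acta2 and Myl9, and a replicate block within each day those of Tpm2 and Myl9. With 1 library left out, calls of Tagln ended without control replicate 1 or LAMZ replicate 1 of day 14, those of Cnn1 without control replicate 2 or LAMZ replicate 1, and those of Tpm2 and Myl9 without any of the 4 libraries of that day, Myl9 also without either LAMZ library of day 7.

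**Figure D3:**
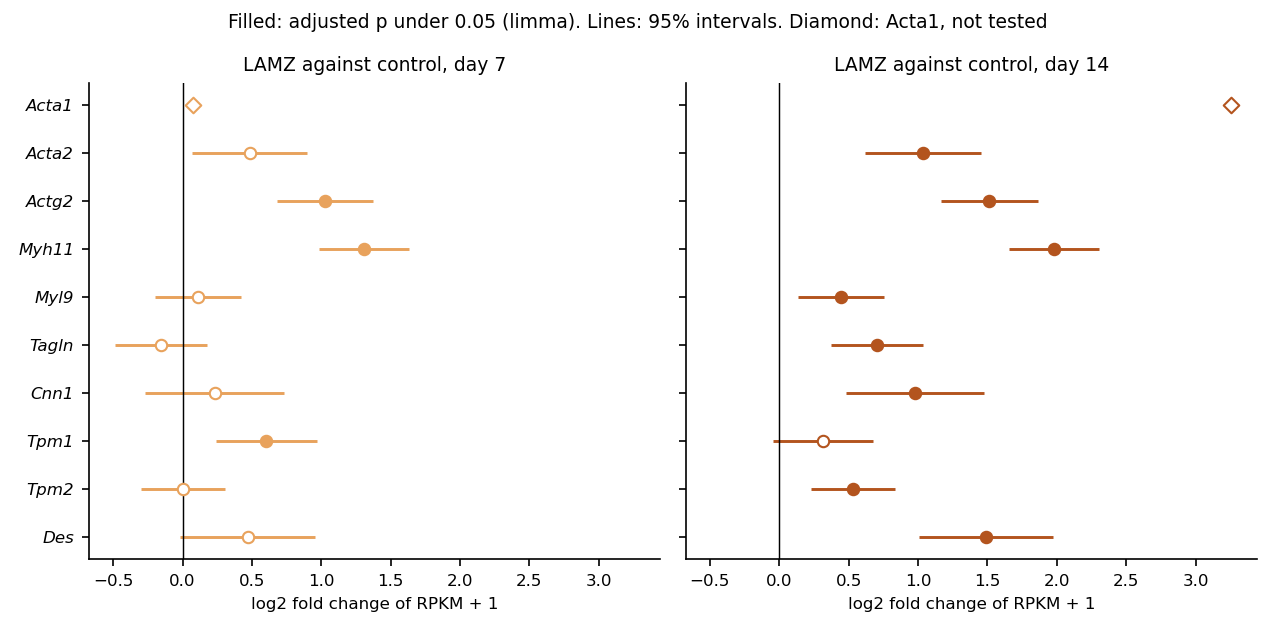
Log2 fold change of RPKM + 1 for LAMZ against control (horizontal axes) at day 7 and day 14, by gene; filled circles passed the adjusted threshold in limma, lines are 95% intervals, and the diamond is Acta1, for which no test was made. At day 14 the 9 tested genes lie between 0.32 and 1.98, and under the same-sum scaling Tpm1 turns to -0.05; at day 7 Actg2, Myh11 and Tpm1 are filled.

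Both comparisons between days use the same libraries as the comparisons above, and ask how the genes moved as the culture aged. In control cells, 0 of the 9 members were called between day 14 and day 7 in limma, and 1 (Des) had an unadjusted p under 0.05, where 4.86% of all tested genes were called. The member log2 fold changes there ran from -0.38 (Cnn1) to 0.52 (Des), with a median of -0.17 against -0.05 over all genes. Under the same-sum scaling Acta2, Actg2, Tagln, Myh11, Myl9, Tpm1 and Tpm2 turned from below to above 0 in that comparison, so no direction of the family with time is given for control cells.

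With LAMZ, 3 of the 9 members were called between day 14 and day 7, all higher, where 14.4% of all tested genes were called and 5.1% were called higher. Des had the largest log2 fold change of these, 1.54 (limma, Benjamini-Hochberg adjusted p = 0.00392). Tagln had 0.84 (limma, Benjamini-Hochberg adjusted p = 0.00888) and Myh11 had 0.67 (limma, Benjamini-Hochberg adjusted p = 0.0185), and for each of the 3 genes both day 14 libraries were higher. Tpm1 went the other way, with a log2 fold change of -0.46 and both day 14 libraries lower, which missed the threshold (limma, Benjamini-Hochberg adjusted p = 0.0873). With libraries at the same sum of protein-coding genes, Tpm1 passed as lower. Tpm2 passed as higher under same-sum scaling, median centring and quantile normalization. For Acta1 the ratio of the mean RPKM at day 14 to that at day 7 was 7.37 with LAMZ and 0.428 in control. The call of Tagln ended without LAMZ replicate 1 of day 7 or of day 14. That of Myh11 ended with no filter, or when any 1 of the 4 LAMZ libraries was left out.

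Whether the LAMZ effect itself differed between the days was tested directly. In limma 0 of the 9 members passed, 5 had an unadjusted p under 0.05, and 0.623% of all tested genes were called. The difference was above 0 for 8 of the 9 members, with a median of 0.55, and the exception was Tpm1. Des had the largest difference, 1.02 (limma, Benjamini-Hochberg adjusted p = 0.163), and Tagln the smallest adjusted p, with a difference of 0.86 (limma, Benjamini-Hochberg adjusted p = 0.108). A late rise in the effect is therefore not shown for any tested member, although 5 more members were called at day 14 than at day 7.

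Around the members, 27 of 28 other smooth muscle and stress fibre genes were tested. At day 7, 4 were called higher and 2 lower, with a median log2 fold change of 0.22, and at day 14, 6 higher and 4 lower, again with a median of 0.22, beside 12.8% and 23% of all tested genes called and all-gene medians of -0.08 and -0.15. Under the same-sum scaling the split was 2 higher and 6 lower at day 7 and 3 higher and 8 lower at day 14. With libraries centred on their medians it was 6 higher and 1 lower at day 7 and 12 higher and 3 lower at day 14, and quantile normalization gave 8 higher and 3 lower at day 14. The direction of the list thus turned with the scaling, and none is given. Csrp1, a LIM protein of the actin filament, had 76.3 and 74.0 RPKM in the day 14 controls and 179 and 171 with LAMZ, a log2 fold change of 1.21 (limma, Benjamini-Hochberg adjusted p = 3.74e-04). Smtnl2, related to smoothelin, had 0.278 and 0.605 RPKM in the day 7 controls and 3.38 and 2.97 with LAMZ. It passed the filter only through the LAMZ libraries, with every control under 1 RPKM, so no test is given for it, although the counts above include it. Itga8, an integrin subunit of contractile cells, was called at day 7 with a log2 fold change of 0.92 and with both LAMZ libraries higher (limma, Benjamini-Hochberg adjusted p = 0.00605). Zyxin (Zyx), which gathers where stress fibres are under tension, went down instead, from 26.7 and 27.4 to 10.2 and 12.6 RPKM at day 7, where the log2 fold change was -1.18 (limma, Benjamini-Hochberg adjusted p = 0.00162). Aoc3, an amine oxidase of smooth muscle, had 12.6 and 13.3 RPKM in the day 14 controls and 4.16 and 5.32 with LAMZ, a log2 fold change of -1.29 (limma, Benjamini-Hochberg adjusted p = 0.00170). Vinculin (Vcl) and filamin A (Flna), the other genes of high level in the list, were called on neither day.

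The members have nonmuscle relatives that serve the same roles in most cells, and 15 of 17 of these were tested. At day 7, 0 were called higher and 2 lower, and at day 14, 5 were called higher and 2 lower, with medians of -0.12 and 0.01, beside 12.8% and 23% of all tested genes called. Under the same-sum scaling the split was 0 higher and 7 lower on each day, and at day 14 under quantile normalization 4 higher and 7 lower. The 5 higher at day 14, named after their values were seen, were Actn1, Actn4, Cnn2, Myh9 and Tagln2. Nonmuscle myosin Myh9 had 73.1 and 75.4 RPKM in the day 14 controls and 106 and 105 with LAMZ, a log2 fold change of 0.50 (limma, Benjamini-Hochberg adjusted p = 0.0153). The actin crosslinker Actn1 had a log2 fold change of 0.60 at day 14 (limma, Benjamini-Hochberg adjusted p = 0.0162). Against these, the light chain Myl12b went from 26.0 and 27.5 to 10.6 and 10.4 RPKM at day 14, where the log2 fold change was -1.27 (limma, Benjamini-Hochberg adjusted p = 3.41e-04). The tropomyosin Tpm3 also fell, with a log2 fold change of -0.65 at day 14 (limma, Benjamini-Hochberg adjusted p = 0.0102). Actb and Actg1, the cytoplasmic actins, and Vim were called on neither day in the main fit. Under the same-sum scaling and under quantile normalization Actb and Vim were called lower on both days, and Actg1 on neither.

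Genes of the striated muscle sarcomere were mostly silent, and 9 of 40 passed the filter. At day 7, 2 were called higher (Myom1 and Tnnt3) and 1 lower (Cryab), and at day 14 only Myom1, higher, beside 12.8% and 23% of all tested genes called. Under the same-sum scaling the split was 0 higher and 2 lower on each day, and the calls of Myom1 and Tnnt3 ended. Myom1, which crosslinks myosin in the sarcomere, had 6.37 and 10.1 RPKM in the day 14 controls and 15.4 and 14.3 with LAMZ, a log2 fold change of 0.81 (limma, Benjamini-Hochberg adjusted p = 0.02). Tnnt3, a troponin of fast skeletal muscle, had 1.51 and 1.09 RPKM in the day 7 controls and 3.11 and 3.88 with LAMZ, and its log2 fold change was 0.97 (limma, Benjamini-Hochberg adjusted p = 0.0464). Actn3, the alpha-actinin of fast fibres, was called on neither day for LAMZ.

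**Figure D4:**
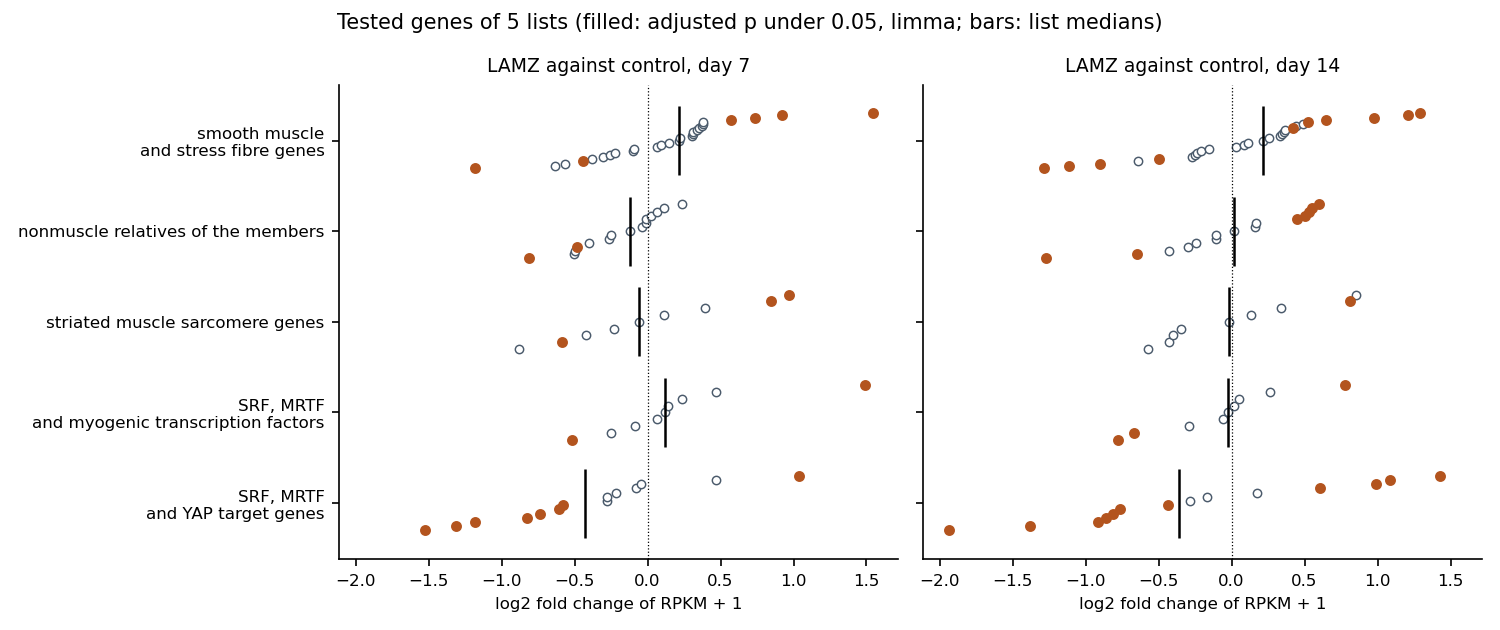
Log2 fold change of RPKM + 1 for LAMZ against control (horizontal axes) at day 7 and day 14 for the tested genes of 5 lists, none of them a member; filled points passed the adjusted threshold in limma and bars are list medians. The medians lie between -0.43 and 0.22; under the same-sum scaling the highest, of smooth muscle and stress fibre genes, moves to -0.0046 at day 7 and -0.13 at day 14.

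Transcription factors known to drive these genes were examined by their own RNA, and 9 of the 16 in the files were tested. At day 7, 1 was called higher and 1 lower, and at day 14, 1 higher and 2 lower, beside 12.8% and 23% of all tested genes called. SRF itself (Srf) had 13.6 and 13.0 RPKM in the day 14 controls and 12.8 and 14.8 with LAMZ, and the groups overlapped. Its log2 fold change at day 14 was 0.05 (not called, limma, Benjamini-Hochberg adjusted p = 0.848). Its cofactor MRTF-A, listed as Mkl1, was lower at day 14, with 5.36 and 5.86 RPKM in the controls and 3.03 and 3.28 with LAMZ, a log2 fold change of -0.67 (limma, Benjamini-Hochberg adjusted p = 0.00978). Mef2c, a factor of muscle and of bone and cartilage cells, had 4.29 and 5.25 RPKM in the day 7 controls and 16.8 and 13.7 with LAMZ, a log2 fold change of 1.49 (limma, Benjamini-Hochberg adjusted p = 9.71e-04). Elk3, a partner of SRF, fell on both days, and its log2 fold change at day 14 was -0.78 (limma, Benjamini-Hochberg adjusted p = 0.00600). Myocardin (Myocd) stayed at or under 0.232 RPKM in every library, and none of Myod1, Myog, Myf5 and Myf6 passed the filter.

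Genes known as targets of SRF, of MRTFs or of the tension-sensitive coactivator YAP were all tested, 14 in the files. At day 7, 1 was called higher and 7 lower, and at day 14, 4 higher and 7 lower, beside 12.8% and 23% of all tested genes called. The medians were -0.43 and -0.36. Over all tested genes most calls were lower too, 1063 of 1607 at day 7 and 2007 of 2878 at day 14, so no direction is claimed for the list; with libraries centred on their medians the split at day 14 was 4 higher and 5 lower. Ctgf, a secreted matrix protein and YAP target, had 79.1 and 90.7 RPKM in the day 14 controls and 238 and 221 with LAMZ, a log2 fold change of 1.43 (limma, Benjamini-Hochberg adjusted p = 6.89e-04). In the other direction, the receptor Axl went from 26.75 and 30.3 to 6.47 and 6.92 RPKM at day 14, where the log2 fold change was -1.94 (limma, Benjamini-Hochberg adjusted p = 7.10e-05). Dusp6, a phosphatase of the ERK pathway, had a log2 fold change of -1.52 at day 7 (limma, Benjamini-Hochberg adjusted p = 0.0138).

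Marker genes of cell types were summed in each library, since a bulk sample cannot tell fewer cells of a kind from less RNA per cell. Osteoblast markers, led by Col1a1, summed to 4518 and 5783 RPKM in the day 7 controls and 6854 and 6631 with LAMZ, then 7557 and 7196 in the day 14 controls and 10390 and 11830 with LAMZ. Of the 7, all tested, 4 were called higher on each day, beside 4.35% and 6.96% of all tested genes. With libraries at the same sum the groups overlapped at day 7, at 4536 and 6200 in control and 5813 and 5502 with LAMZ. Most of the sum was Col1a1, which other mesenchymal cells also make, and without it the sums were 164 and 332 in the day 7 controls and 602 and 581 with LAMZ. By day 14 they were 899 and 975 in the controls and 1457 and 1869 with LAMZ. Smooth muscle markers, 6 genes led by Smtn that include Myh11 and Cnn1, summed to 89.3 and 89.3 in the day 7 controls and 113 and 117 with LAMZ. At day 14 they summed to 83.1 and 85.4 in the controls and 130 and 132 with LAMZ. With libraries at the same sum these groups stood apart at day 14 but overlapped at day 7, at 89.6 and 95.8 in control and 95.5 and 97.2 with LAMZ. These sums hold the changes of the members Myh11 and Cnn1 themselves. Of the smooth muscle markers outside the members, Smtn was called at day 14 only, at 0.53 (limma, Benjamini-Hochberg adjusted p = 0.0245). Lmod1 and Mylk were called on neither day, and Myocd was not tested.

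Skeletal muscle markers, led by Actn3, had low sums, at 4.70 and 4.33 in the day 7 controls and 5.89 and 6.72 with LAMZ, then 7.41 and 6.84 in the day 14 controls and 8.44 and 8.59 with LAMZ. With libraries at the same sum the order of the groups at day 14 turned, to 9.02 and 8.65 in control and 8.115 and 8.30 with LAMZ. Of the 8, 2 were tested, and 1 (Tnnt3) was called higher at day 7 and 0 at day 14 in limma, beside 4.35% and 6.96% of all tested genes. Without Actn3 they summed to 1.68 and 2.03 in the day 7 controls and 4.19 and 5.0 with LAMZ, then 1.04 and 1.95 in the day 14 controls and 3.40 and 2.58 with LAMZ. Of all 8 markers, 5 stayed under 1 RPKM in every library, and their part in the level of Acta1 was not tested.

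Of 7 pericyte markers 5 were tested, and calls went in both directions, 1 higher and 1 lower at day 7, and 2 higher and 2 lower at day 14, beside 12.8% and 23% of all tested genes called. The most abundant, Pdgfrb, was lower with LAMZ on both days, with log2 fold changes of -0.68 (limma, Benjamini-Hochberg adjusted p = 0.00798) and -0.74 (limma, Benjamini-Hochberg adjusted p = 0.00315). The others called at day 14, named after their values were seen, were Cspg4 at 1.77 and Mcam at 1.63, higher, and Notch3 at -0.71, lower (limma, Benjamini-Hochberg adjusted p = 7.63e-04, 0.00148 and 0.0151). The sums of all 7 were 77.4 and 82.45 in the day 7 controls, 70.7 and 72.2 with LAMZ, 80.4 and 84.5 in the day 14 controls, and 91.8 and 109 with LAMZ. Without Pdgfrb the sums of day 14 were 27.5 and 27.5 in the controls and 61.6 and 74.0 with LAMZ, of which Cspg4 alone made up 48.3 and 58.5. With libraries at the same sum, the day 14 sums of all 7 overlapped, at 97.84 and 106.8 in control and 88.35 and 104.9 with LAMZ. Those without Pdgfrb stood apart, at 33.53 and 34.75 in control and 59.23 and 71.47 with LAMZ.

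Fibroblast and myofibroblast markers, led by Col3a1, summed to 1136 and 887 in the day 7 controls and 810 and 872 with LAMZ, then 1000 and 1040 in the day 14 controls and 627 and 627 with LAMZ. Of those 5 genes, 0 were called higher and 2 lower at day 7, and 1 higher and 4 lower at day 14, beside 12.8% and 23% of all tested genes called. The 4 lower at day 14, of which all but Col3a1 were named after their values were seen, were S100a4 at -3.48, Thy1 at -1.66, Pdgfra at -1.32 and Col3a1 at -0.58 (limma, Benjamini-Hochberg adjusted p = 7.27e-05, 0.00133, 3.74e-04 and 0.0263). The 1 that rose, also named after its values were seen, was Postn (periostin), a matrix protein of myofibroblasts and of the bone surface. It had 83.7 and 85.9 RPKM in the day 14 controls and 145 and 155 with LAMZ, a log2 fold change of 0.81 (limma, Benjamini-Hochberg adjusted p = 0.00194).

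Macrophage markers, led by Lyz2, summed to 425 and 538 RPKM in the day 7 controls and 9.13 and 7.00 with LAMZ, then 996 and 1058 in the day 14 controls and 7.09 and 7.10 with LAMZ. Of the 9, 7 passed the filter only through the control libraries, so no count of calls is given. Adipocyte markers, led by Lpl, summed to 24.2 and 18.9 in the day 7 controls and 4.60 and 4.41 with LAMZ, then 41.95 and 92.4 in the day 14 controls and 4.48 and 5.27 with LAMZ. Chondrocyte markers, led by Col2a1, summed to 226 and 153.5 in the day 7 controls and 403 and 425 with LAMZ, then 87.5 and 98.3 in the day 14 controls and 292 and 307 with LAMZ. At day 7, 2 of the 4 were called higher and 0 lower, beside 12.8% of all tested genes called. At day 14, 2 were called higher and 1 lower, beside 23%. The 1 lower, named after its values were seen, was Sox9 at -0.66 (limma, Benjamini-Hochberg adjusted p = 0.0225). Endothelial markers, led by Tek, stayed at or under 2.82 in every library. No marker of the 9 lists was at 0 in all 8 libraries. The part of these cell types in the levels of the contractile genes was not tested.

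**Figure D5:**
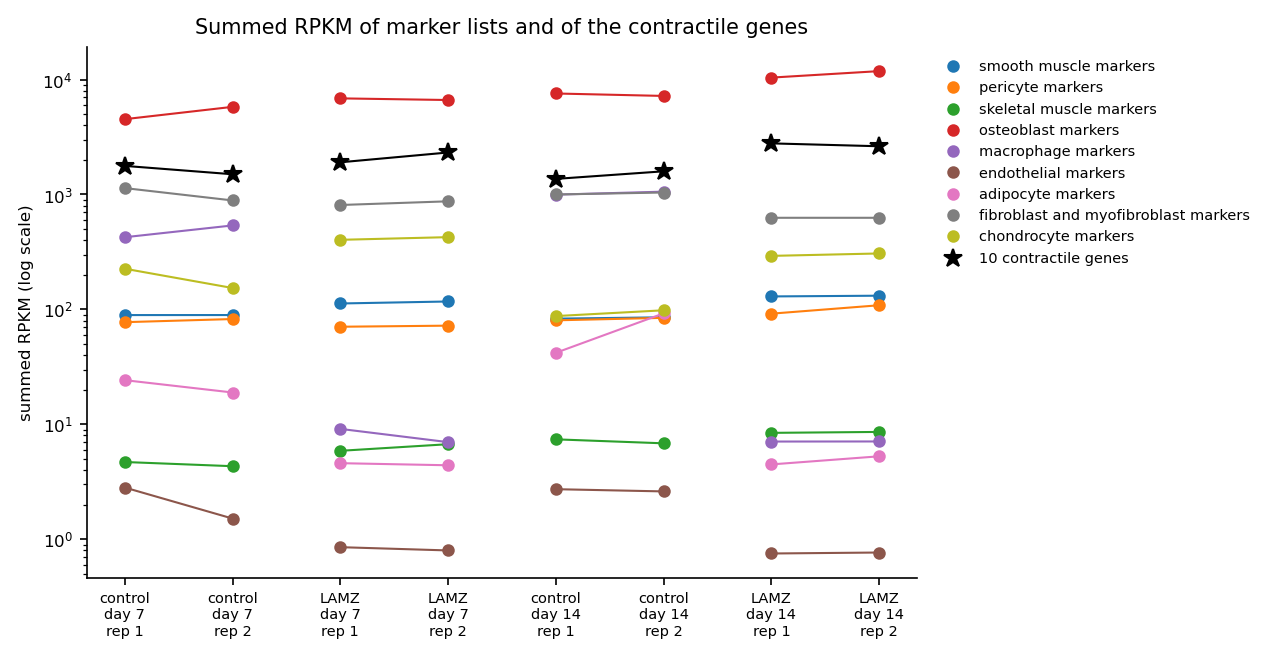
Summed RPKM (vertical axis, log scale) of 9 lists of cell type markers and of the 10 contractile genes in each of the 8 libraries; lines join the replicates of a group. The 10 genes sum to 2782 and 2626 with LAMZ at day 14 against 1366 and 1590 in the controls of that day, while macrophage markers sum to 7.09 and 7.10 against 996 and 1058.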

How the data were processed

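RNA of 8 libraries was sequenced on an Ion Proton, and the deposited RPKM values, 1 per gene symbol, were computed by the authors in CLC Genomics Workbench on build mm10. Of 51826 entries, 4 symbols turned into dates were dropped. Genes reaching an RPKM of 1 in 2 or more libraries were fitted as log2(RPKM + 1) with limma 3.58.1 in R 4.3.3, all 4 groups in 1 fit with 4 residual degrees of freedom and a mean-variance trend. P-values were adjusted over all tested genes by Benjamini-Hochberg; the fit was tested on simulated data. Replicate numbers were checked for pairing between groups, and the correlations of deviations ran from -0.0342 to 0.0776. Mapped reads per library were recovered from the smallest RPKM steps and GENCODE exon lengths, with lengths of Acta2 and Myh11 found by search; between 92.8% and 95.1% of low values then gave whole reads within 0.05. Alternatives were 2 other pseudocounts, 2 other filters, 4 scalings, replicate blocks, no trend, single days and leaving out each library. From each list the 3 genes of highest mean RPKM and the 3 largest called changes per day were eligible for naming. Members and lists were chosen with earlier results of these data known.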

Additional observations from a re-analysis of the deposited data

Results flagged for a closer look

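Between the days, Ier2 had a LAMZ effect that differed in the test of the difference itself. No other gene of the lists did, leaving aside genes that passed the filter only through the control libraries. Ier2, an immediate early gene that responds to SRF, had 6.97 and 6.26 RPKM in the day 7 controls and 3.70 and 4.54 with LAMZ, then 8.69 and 8.28 in the day 14 controls and 13.6 and 13.2 with LAMZ. Its direction turned from lower to higher, and the effect at day 14 minus that at day 7 was 1.18 on the log2 scale (limma, Benjamini-Hochberg adjusted p = 0.0369). The macrophage genes C1qb and C1qc, which encode complement chains, were at 0 RPKM in all 4 LAMZ libraries, while their control levels were higher at day 14 than at day 7. Both passed the filter only through the control libraries, so no test is given for them. Their differences were -1.44 for C1qb and -1.20 for C1qc, and with LAMZ values of 0 on both days these equal the gaps between the control levels. The call of Ier2 was fragile. Ier2 passed in 6 of 19 alternative settings. It did not pass without a filter, with a replicate block or when any 1 library was left out, although it kept its direction in every setting. The differences ran from 0.80 to 1.33 for Ier2, from -1.70 to -1.30 for C1qb and from -1.45 to -1.06 for C1qc.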

How the results depend on the processing

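Of 873 member values under 20 alternative settings, 790 kept their direction and their side of the threshold, 49 fell short of it, 7 newly passed it and 27 changed direction, none of them called to begin with. With libraries rescaled to the same sum, 5 members were called at day 14 in place of 8; leaving out 1 library gave 4 to 8, and for LAMZ between days 1 to 3. Same-sum scaling reversed, at day 7, Cnn1 to -0.063, Myl9 to -0.19 and Tpm2 to -0.30, at day 14 Tpm1 to -0.046, and between days in control cells Acta2 to 0.082, Actg2 to 0.0265, Tagln to 0.24, Myh11 to 0.15, Myl9 to 0.16, Tpm1 to 0.085 and Tpm2 to 0.090. Quantile normalization put Myl9 at -0.19 and Tpm2 at -0.090 at day 7, and Tagln at 0.084 and Myl9 at 0.020 between control days. Centring on the median put Tagln at 0.0042 and Myh11 at 0.023 there. The same sum of protein-coding genes, a scaling chosen after seeing the data, put Tpm2 at -0.055 at day 7 and Myh11 at 0.0047 between control days. Without 1 library, day 7 values ran from -0.014 to 0.48 for Cnn1, -0.0073 to 0.23 for Myl9 and -0.11 to 0.12 for Tpm2, and control values between days from -0.12 to 0.079 for Tagln and -0.10 to 0.099 for Myh11. The cause was not tested. A replicate block gave 2 members called at day 7 and 7 at day 14, or 2 and 6 with the block within each day; the pairing of replicate numbers is not stated by the labels. Over all genes, 1607 were called at day 7 and 2878 at day 14, of which 33.9% and 30.3% were higher; the same sum gave 3592 and 5796 calls, of which 8.69% and 8.16% were higher, and centring gave 53.5% and 56.3% higher. At day 7 no filter gave 951 calls, the block within each day 984, the day alone 624, and leaving out 1 library 527 to 1383; at day 14 leaving out 1 library gave 1512 to 3087. The difference between the days had 78 calls over all genes, but 0 with no filter, 17 with a replicate block, 7 with the block within each day, 30 with no trend, 34 and 166 with the smaller and the larger pseudocount, 133 with the stricter filter, 121 with the coding sum and 0 to 21 without 1 library. At 3463538 to 5832101 reads, genes near 1 RPKM rest on few reads; a library left alone in its group is assumed to vary like the others.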

Other observations

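By Pearson's r of log2(RPKM + 1) over the 8 libraries, as a measure of likeness without a test, the genes nearest to Acta1 among 12513 were Mrps18b (0.994), Tpm2 (0.981), Zfpl1 (0.977), Cnn2 (0.975) and Cars (0.962). The libraries fall into 4 groups, so the measure mostly compares group levels. In likeness to Acta1 the other members ranked 57 (Tagln), 59 (Myl9), 104 (Acta2), 113 (Des), 157 (Cnn1), 378 (Myh11), 504 (Actg2) and 2844 (Tpm1). The family was chosen on the values of Acta1, so nothing is read from these ranks. Nearest to Acta2 were Rpl10a (0.982), Rpl36al (0.973), Rpl8 (0.968), Npm1 (0.967) and Pcolce2 (0.967).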
